A study of Arabidopsis thaliana with 4 samples.

Results

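The genes described here encode enzymes that remove superoxide and hydrogen peroxide in Arabidopsis thaliana: 4 superoxide dismutases (CSD1, CSD2, FSD1 and MSD1), 2 catalases (CAT1 and CAT3) and 4 ascorbate peroxidases (APX1, APX2, sAPX and tAPX). The set is defined by gene name, was drawn up with earlier results of these data known, and was taken from the arrays by locus identifier. All 10 had a probe, out of 25665 genes identified on the arrays. Of the 10, 8 were tested, and CAT1 and APX2 were too dim. Expression was compared between seedlings carrying 35S:AtERF4-HA, an HA-tagged ethylene response factor that represses transcription, and control seedlings carrying 35S:NLS-GFP-HA, a nuclear green fluorescent protein with the same tag. Both were Columbia-0, untreated and 14 days old, grown in 16 h light and 8 h dark at 23 °C on agar with 0.5% sucrose. The 35S promoter drives both transgenes in most tissues, so neither genotype is free of an overexpressed protein, and how many transgenic lines were used was not stated in the sources read here. Each of 4 biological replicates was 1 Agilent array that held RNA of both genotypes, pooled from many plants of a shared plate. AtERF4-HA RNA was labelled with Cy3 on arrays 1 and 2 and with Cy5 on arrays 3 and 4.

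Superoxide, a by-product of photosynthesis, respiration and oxidases at the cell surface, is converted to hydrogen peroxide by superoxide dismutases, which are classed by their metal. Catalases of the peroxisome break hydrogen peroxide down without a reductant, and ascorbate peroxidases of cytosol, stroma and thylakoid reduce it with ascorbate. Ascorbate is then regenerated through monodehydroascorbate, dehydroascorbate and glutathione reductases. In ageing leaves catalase and ascorbate peroxidase activities are known to decline while hydrogen peroxide increases. When copper is scarce, Arabidopsis is known to lower the copper/zinc enzymes CSD1 and CSD2 through miR398 and to raise the iron enzyme FSD1.

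The ratio on each array was read as AtERF4-HA over control by the dye labels. By these dyes ERF4 itself (AT3G15210) was higher in the AtERF4-HA channel on all 4 arrays, at log2 ratios of 0.98, 0.87, 0.82 and 1.04. The authors' deposited table, whose titles also put AtERF4-HA over control, has the opposite sign: it lists ERF4 at -0.87, -0.71, -0.75 and -0.85 and FSD1 at 0.75, 0.66, 0.76 and 0.72 on a natural log scale. Every direction here follows the dye labels, and an exchange of those labels would turn each rise into a fall. Over all arrays and channels 58.0% to 62.4% of gene spots were well above background.

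Of the 8 tested genes, 4 fell (FSD1, APX1, sAPX and CSD1), 1 rose (tAPX) and 3 did not pass (CSD2, MSD1 and CAT3), where passing means a Benjamini-Hochberg adjusted p under 0.05 in limma over all 19492 genes tested. Over all genes 25.6% passed, 13.6% as higher and 11.9% as lower. All 4 ratios were below 0 for 4 of the 8 genes, against 25.0% of all genes, and above 0 for 1 of the 8, against 28.2% of all genes. At an unadjusted p under 0.05, a threshold used below only beside counts of 0, 22.3% of all genes were higher and 20.6% lower, with 15% and 14.5% without array 1 and 12.6% and 11.5% without array 2. The balance of calls over all genes, 2654 higher and 2329 lower, moved with the scaling, to 3038 and 1769 with median centring and to 7892 and 3064 in the authors' table, while the tested members counted 1 higher in both, with 2 and 4 lower. The 8 genes were well above background on all 4 arrays in both genotypes, so none entered the test through 1 genotype alone, and none of their spots was saturated. The median log2 ratio was -0.33 over the 8 genes and 0.01 over all genes tested. With median centring these medians were -0.18 and 0.11, and in the authors' table -0.24 and 0.16. In whole seedlings fewer cells of a type and less RNA per cell cannot be told apart. Without array 1 the count came to 2 (FSD1 lower, tAPX higher) and without array 2 to 1 (FSD1), while the count over all genes came to 681 and 659.

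**Figure D1:**
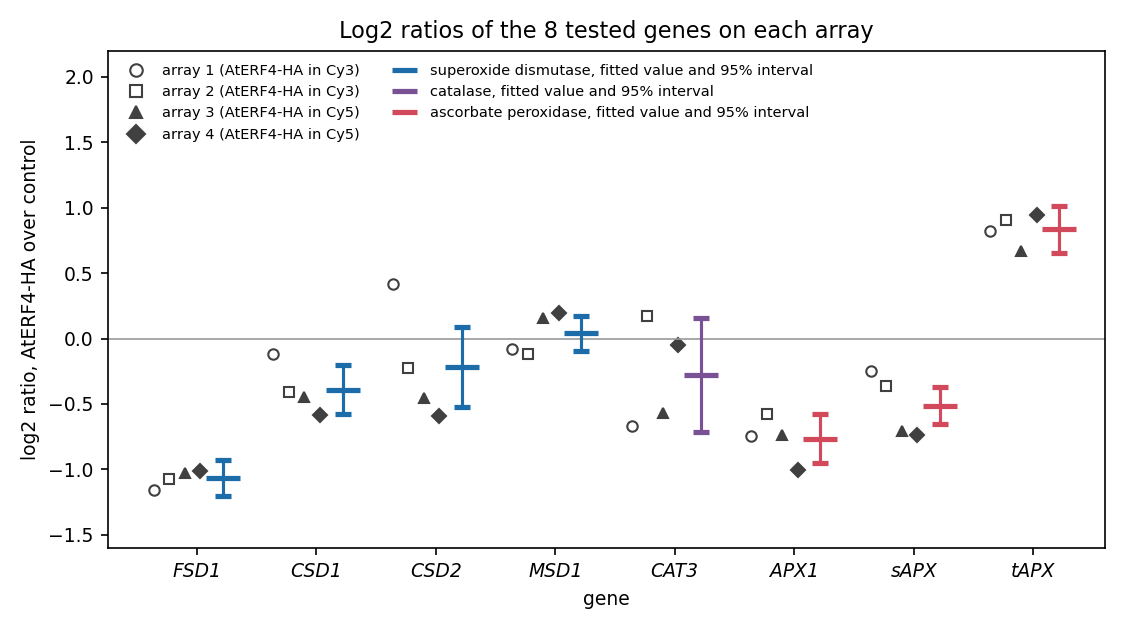
Log2 ratio of AtERF4-HA over control (vertical axis) for the 8 tested genes (horizontal axis), with a symbol for each array, open where AtERF4-HA carried Cy3 and filled where it carried Cy5, and beside them a coloured bar for the fitted value with its 95% interval. All 4 arrays lie below 0 for FSD1, CSD1, APX1 and sAPX and above 0 for tAPX, and they lie on both sides of 0 for CSD2, MSD1 and CAT3.

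Among the superoxide dismutases, FSD1 (AT4G25100), an iron enzyme of chloroplast and cytosol, had the largest fall. On arrays 1 to 4 its normalised log2 signal was 15.55, 15.46, 15.64 and 15.39 in control and 14.39, 14.39, 14.61 and 14.37 in AtERF4-HA. The genotypes did not overlap, and every AtERF4-HA value lay below every control value. The 4 log2 ratios were -1.15, -1.07, -1.03 and -1.01. The fitted ratio was -1.07 ± 0.05 (SE, n = 4 arrays, limma adjusted p = 0.0015), a 2.1-fold fall, and FSD1 was the only one of the 8 genes that passed under all 15 other settings.

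CSD1 (AT1G08830), the cytosolic copper/zinc enzyme, fell less. Its log2 signal was 11.46, 11.42, 11.39 and 11.46 in control and 11.34, 11.01, 10.94 and 10.88 in AtERF4-HA. Control values were close together, AtERF4-HA values were all below them, and array 1 showed the smallest difference. The ratios of -0.12, -0.41, -0.45 and -0.58 gave -0.39 ± 0.07 (SE, n = 4 arrays, limma adjusted p = 0.023), or 1.31-fold. The call was lost when array 1 was left out (-0.46, adjusted p = 0.079), when array 2 was left out (-0.32, 0.147) and when loess was replaced by median centring (-0.26, 0.219).

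CSD2 (AT2G28190), the copper/zinc enzyme of the chloroplast, split by array. Its log2 signal was 11.70, 12.03, 11.83 and 12.02 in control and 12.12, 11.80, 11.38 and 11.43 in AtERF4-HA. The genotypes overlapped, with array 1 higher in AtERF4-HA and the other 3 arrays lower. Its ratios were 0.42, -0.22, -0.46 and -0.59, and the fitted value of -0.22 ± 0.12 did not pass (SE, n = 4 arrays, 95% interval -0.52 to 0.09, limma adjusted p = 0.22). Without array 1 it was -0.38 (adjusted p = 0.102) and without array 2 -0.06 (0.736).

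MSD1 (AT3G10920), the manganese enzyme of mitochondria, had the ratio nearest to 0. Its log2 signal was 12.86, 12.88, 12.76 and 12.82 in control and 12.78, 12.76, 12.92 and 13.01 in AtERF4-HA, and the genotypes overlapped. The ratios were -0.08, -0.12, 0.16 and 0.20, negative where AtERF4-HA carried Cy3 and positive where it carried Cy5. The fitted value was 0.04 ± 0.05 (SE, n = 4 arrays, limma adjusted p = 0.58), with a 95% interval from -0.10 to 0.18.

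CAT3 (AT1G20620), a peroxisomal catalase whose transcript is known to cycle with the day, had ratios that varied widely between arrays of the same dye orientation. Its log2 signal was 14.05, 13.36, 14.27 and 13.44 in control and 13.38, 13.53, 13.70 and 13.39 in AtERF4-HA. Arrays 1 and 3 were lower in AtERF4-HA, while on arrays 2 and 4 both genotypes lay close together. The ratios were -0.67, 0.17, -0.57 and -0.05, and the fitted value of -0.28 ± 0.17 did not pass (SE, n = 4 arrays, 95% interval -0.72 to 0.16, limma adjusted p = 0.26). Without array 1 it was -0.07 and without array 2 -0.49, and it passed when array 1 was averaged with array 4 and array 2 with array 3, a setting added after seeing the data (adjusted p = 0.023).

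A second CAT3 probe, for another transcript model, was dim, with median signals of 90 to 144. Its ratios of -0.02, 0.08, -0.02 and -0.03 carry little range at that signal after the offset of 50. In the authors' deposited table, control over AtERF4-HA by the dyes, this probe stands at 0.33, -0.31, 0.38 and -0.14, and the bright probe at 0.42, -0.20, 0.35 and -0.06.

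CAT1 (AT1G20630), the catalase gene next to CAT3 on chromosome 1 in the RefSeq TAIR10.1 table, was not well above background on any array in either genotype. Its median signals were 75, 72, 69 and 64 in AtERF4-HA and 96, 74, 85 and 76 in control, over local backgrounds of 49 to 60. APX2 (AT3G09640), a cytosolic ascorbate peroxidase known for its induction by excess light and heat, was not well above background either. It read 75, 71, 69 and 77 in AtERF4-HA and 84, 71, 90 and 75 in control, over backgrounds of 48 to 71. No ratio is given for CAT1 or APX2.

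The ascorbate peroxidases moved in opposite directions. APX1 (AT1G07890), the main cytosolic enzyme, had a log2 signal of 15.54, 15.58, 15.92 and 15.78 in control and 14.80, 15.002, 15.19 and 14.78 in AtERF4-HA. The genotypes did not overlap, and AtERF4-HA was lower on every array. The ratios were -0.74, -0.58, -0.74 and -1.01. APX1 fell, at -0.77 ± 0.07 (SE, n = 4 arrays, 1.70-fold, limma adjusted p = 0.0047). Leaving out array 1 (-0.73, adjusted p = 0.057) or array 2 (-0.81, 0.051) ended the call.

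sAPX (AT4G08390), which acts in the stroma and in mitochondria, had a log2 signal of 13.13, 13.32, 13.49 and 13.18 in control and 12.88, 12.95, 12.79 and 12.44 in AtERF4-HA. All control values lay above all AtERF4-HA values. The ratios were -0.25, -0.36, -0.71 and -0.73, with a mean of -0.30 on arrays 1 and 2 and -0.72 on arrays 3 and 4. sAPX fell, at -0.51 ± 0.05 (SE, n = 4 arrays, 1.43-fold, limma adjusted p = 0.0063), with the same sign in both dye orientations. The call was lost on leaving out array 1 (-0.54, adjusted p = 0.063) or array 2 (-0.48, 0.075) and with median centring (-0.35, 0.068).

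tAPX (AT1G77490), bound to the thylakoid membrane, was the one gene of the set that rose. Its log2 signal was 13.10, 12.95, 12.99 and 12.98 in control and 13.92, 13.86, 13.67 and 13.93 in AtERF4-HA. The control values lay close together and every AtERF4-HA value was above them. The ratios were 0.82, 0.91, 0.67 and 0.95, with means of 0.86 and 0.81 in the 2 dye orientations. tAPX rose by 0.84 ± 0.07 (SE, n = 4 arrays, 1.79-fold, limma adjusted p = 0.0037), and without array 2 it did not pass (0.81, adjusted p = 0.051).

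**Figure D2:**
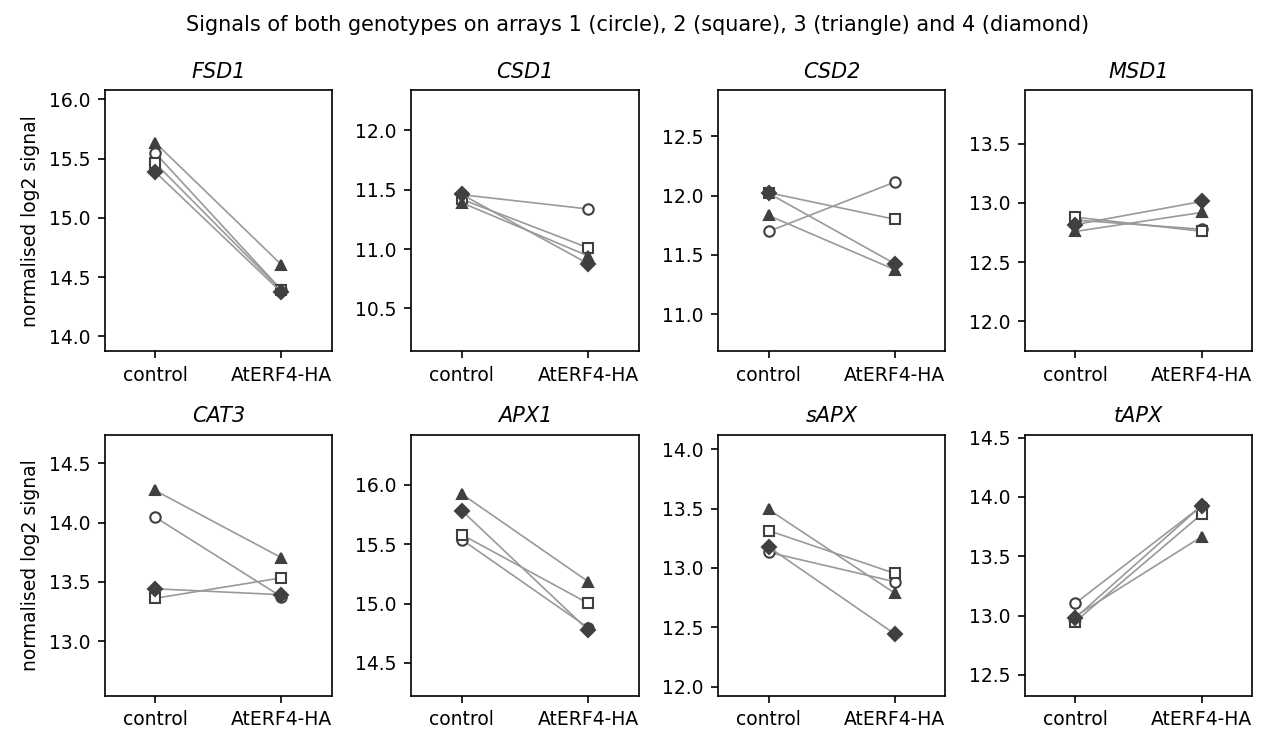
Normalised log2 signal (vertical axes, each spanning the same range) of the 8 tested genes in control and AtERF4-HA, with a line joining the channels of an array. The lines of FSD1, CSD1, APX1 and sAPX all fall and those of tAPX all rise, while CSD2, MSD1 and CAT3 have lines in both directions.

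Ratios were also compared between genes of a class on the same arrays, in 9 pairs. The SDs and 95% intervals of these differences have no dye term, so a gap between dye orientations widens them. The intervals are not adjusted over the 9 pairs. The difference between sAPX and tAPX, the organellar forms, was -1.07, -1.27, -1.38 and -1.68 on arrays 1 to 4. Its mean was -1.35 ± 0.26 (SD, n = 4, 95% interval -1.755 to -0.942). APX1 was below tAPX on every array too (mean difference -1.6 ± 0.24, SD, n = 4, 95% interval -1.99 to -1.22). APX1 was also below sAPX on every array by a smaller amount (-0.25 ± 0.19, 95% interval -0.55 to 0.05). FSD1 was below MSD1 on all 4 arrays (mean difference -1.11 ± 0.12, SD, n = 4, 95% interval -1.29 to -0.92). CSD1 lay above FSD1 by 0.68 ± 0.26 (95% interval 0.27 to 1.09), again on all 4. So did CSD2, by 0.85 ± 0.51 (95% interval 0.04 to 1.665). CSD1 was below MSD1 on all 4 arrays (-0.43 ± 0.33, 95% interval -0.95 to 0.09). The differences were -0.04 and -0.29 on arrays 1 and 2 and -0.61 and -0.78 on arrays 3 and 4. The exact sign-flip permutation test, two-sided, gave p = 0.125 for each of these pairs (adjusted p = 0.16 over the 9 pairs), the smallest it can give with 4 arrays, so no pair could reach 0.05. CSD1 and CSD2 did not have a common order, with CSD1 the lower on 2 of 4 arrays and a mean difference of -0.17 (95% interval -0.58 to 0.24, exact p = 0.50). CSD2 was above MSD1 on 1 of 4 arrays, with a mean difference of -0.26 (95% interval -1.17 to 0.66, exact p = 0.375).

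The other genes of these 3 families were described from a list of 10, all of which were tested. Of them 2 rose, 1 fell and 7 did not pass, with a median of 0.14, and with median centring 3 rose and 0 fell (0 lower at an unadjusted p under 0.05). APX4 (AT4G09010), an ascorbate peroxidase-like protein of the thylakoid lumen, rose by 0.63 ± 0.05 (ratios 0.51, 0.58, 0.70 and 0.74, limma adjusted p = 0.0037). CSD3 (AT5G18100), the peroxisomal copper/zinc superoxide dismutase, rose by 0.34 ± 0.06 (0.43, 0.18, 0.36 and 0.36, adjusted p = 0.025). With array 1 or array 2 left out neither passed (adjusted p = 0.051 to 0.139), and of the 10 genes limma called 0, against 2 higher and 2 lower without array 1, and 4 higher and 1 lower without array 2, at an unadjusted p under 0.05.

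CAT2 (AT4G35090), the main leaf catalase, passed as lower at -0.32 ± 0.05 (limma adjusted p = 0.016), but its ratios split by dye. They were -0.70 and -0.71 on arrays 1 and 2 and 0.07 and 0.08 on arrays 3 and 4, so AtERF4-HA was lower in only 1 dye orientation. Without a dye term CAT2 did not pass (adjusted p = 0.208), nor with median centring (-0.10, 0.687) or without array 1 (0.116) or array 2 (0.136).

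The remaining genes of the families did not pass. CCS, the chaperone that loads copper into CSD1 and CSD2, was at 0.15 ± 0.10, and the chloroplast iron enzymes FSD2 and FSD3 were at 0.25 ± 0.08 and -0.06 ± 0.12. APX3, of the peroxisome, stood at 0.14 ± 0.06, APX5 at 0.24 ± 0.07 and APX6 at 0.01 ± 0.06. FSD2 did pass as higher under 5 other settings, among them without array 4 (0.32, adjusted p = 0.048). MSD2, a secreted manganese enzyme, was at -0.21 ± 0.09. It was well above background on 4 of 4 arrays in control and 2 of 4 in AtERF4-HA, so it entered the test through control alone. MSD2 passed as lower under 4 of the 14 other settings that tested it, among them processed signals (-1.29, adjusted p = 0.0012). Why the settings differed was not tested. APX5 passed as higher under 5 other settings too, among them processed signals (0.69, adjusted p = 0.0084). APX3 passed as higher under 1, the authors' table (0.23, adjusted p = 0.027).

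Of the enzymes that regenerate ascorbate and glutathione, 4 of 10 fell and 2 rose (median -0.17). MDAR3 (AT3G09940), a cytosolic monodehydroascorbate reductase, had the largest fall, at -1.98 ± 0.21 (limma adjusted p = 0.0066), with ratios of -1.96, -2.56, -1.13 and -2.27. DHAR2 (AT1G75270), a cytosolic dehydroascorbate reductase, fell, at -0.87 ± 0.08 (adjusted p = 0.0041), as did GR1 (AT3G24170), the glutathione reductase of cytosol and peroxisome, at -0.65 ± 0.06 (0.0039). DHAR3 (AT5G16710), the chloroplast form, rose by 0.42 ± 0.05 (0.0096). GR2 (AT3G54660), the organellar glutathione reductase, named here after its values were seen, rose by 0.36 ± 0.07 (0.026). Leaving out array 1 or array 2, limma called 2 lower and 0 higher of the 10, with 2 higher at an unadjusted p under 0.05 in each case. DHAR3 did not pass then (adjusted p = 0.085 and 0.099), nor GR1 without array 1 (0.054) or MDAR3 without array 2 (0.062). The list counted 3 lower and 3 higher both with median centring (median -0.0044) and in the authors' table (median -0.05). Processed signals, which that table matched but for a constant shift, gave 4 lower and 2 higher.

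Of 9 genes for ascorbate and glutathione synthesis 4 fell and 0 rose in limma (median -0.19), with 5 lower and 0 higher at an unadjusted p under 0.05. VTC4 (AT3G02870), a phosphatase of the ascorbate pathway, fell, at -0.58 ± 0.06 (adjusted p = 0.0062), as did VTC1 (AT2G39770), a GDP-mannose pyrophosphorylase, at -0.43 ± 0.06 (0.0094) and GSH2 (AT5G27380), glutathione synthetase, at -0.33 ± 0.06 (0.023). With array 1 or array 2 left out, limma called 0 of the 9 (these 3 genes at adjusted p = 0.069 to 0.141), against 4 at an unadjusted p under 0.05 in each case, and with median centring 1 gene of the list fell, not VTC1 (0.232) or GSH2 (0.485). The authors' table gave 3 lower and 1 higher.

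Peroxiredoxins and glutathione peroxidases, which reduce peroxides with thiols, counted 4 lower and 1 higher of 13 tested (median -0.14). 2CPB (AT5G06290), a chloroplast 2-Cys peroxiredoxin, rose by 0.57 ± 0.06 (adjusted p = 0.0049). GPX2 (AT2G31570) fell, at -0.60 ± 0.07 (0.0078), as did GPX7 (AT4G31870), a chloroplast form, at -0.49 ± 0.09 (0.021). The calls of 2CPB and GPX7 were lost on leaving out array 1 or array 2 (adjusted p = 0.060 to 0.129), and that of GPX2 on leaving out array 1 (0.066). The balance turned to 2 lower and 3 higher with median centring (median -0.02), where the median over all genes was 0.11. It came to 4 lower and 3 higher in the authors' table, where the median over all genes was 0.16. Processed signals, which that table matched but for a constant shift, gave 5 lower and 1 higher.

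**Figure D3:**
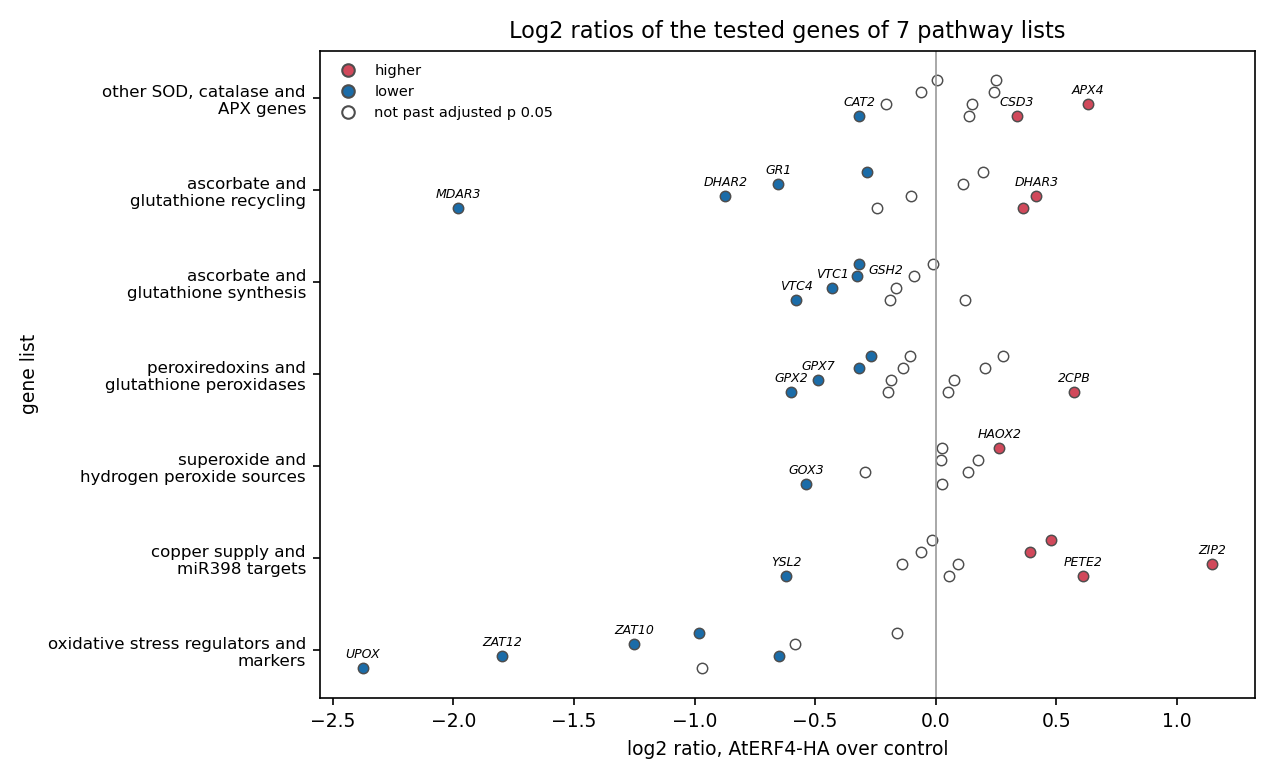
Log2 ratio of AtERF4-HA over control (horizontal axis) of the tested genes of 7 pathway lists (vertical axis), filled where the gene passed an adjusted p of 0.05. Of the 68 tested genes 20 were lower and 10 higher, from UPOX at -2.38 to ZIP2 at 1.15. Other scalings gave 15 lower and 15 higher (median centring) and 21 lower and 19 higher (the authors' table). The median over all genes was 0.11 and 0.16 in these scalings, against 0.01 as reported.

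Genes whose enzymes make superoxide or hydrogen peroxide counted 1 lower and 1 higher of 8 (median 0.03), with 1 lower and 2 higher under median centring and in the authors' table and 2 lower and 1 higher with no background correction. GOX3 (AT4G18360), a glycolate oxidase, fell by 0.54 ± 0.06 on the log2 scale (limma adjusted p = 0.0082), and HAOX2 (AT3G14150), a hydroxyacid oxidase, rose by 0.26 ± 0.06 (0.033). Neither was called once array 1 or array 2 was left out (adjusted p = 0.078 to 0.210), nor HAOX2 without array 3 (0.056).

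Of the copper supply list, which holds transporters, plastocyanins and a further miR398 target beside the regulator SPL7, 4 of 10 rose and 1 fell (median 0.07). ZIP2 (AT5G59520), a metal transporter, rose by 1.15 ± 0.05 (adjusted p = 0.0015), with ratios of 1.49 and 1.41 on arrays 1 and 2 and 0.87 and 0.82 on arrays 3 and 4. PETE2 (AT1G20340), a plastocyanin, rose by 0.61 ± 0.06 (0.0054), with 0.34 and 0.14 on arrays 1 and 2 and 0.95 and 1.01 on arrays 3 and 4. YSL2 (AT5G24380), a metal-nicotianamine transporter, fell by 0.62 ± 0.05 on the log2 scale (0.0039). The regulator SPL7 (AT5G18830) was at 0.06 ± 0.06 and did not pass. With array 1 or array 2 left out, ZIP2 was the 1 gene of the list that passed, and PETE2 and YSL2 did not (adjusted p = 0.051 to 0.061).

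Genes that respond to oxidative stress were lower as far as they passed, 5 of 8 in limma with 0 higher, and 7 lower with 0 higher at an unadjusted p under 0.05 (median -0.98). All 8 had 4 ratios below 0. UPOX (AT2G21640), a mitochondrial protein induced by oxidants, fell, at -2.38 ± 0.19 (adjusted p = 0.0035), as did the zinc finger genes ZAT12 (AT5G59820), known to act upstream of APX1 in oxidative stress, at -1.80 ± 0.13 (0.0030) and ZAT10 (AT1G27730) at -1.25 ± 0.16 (0.0096). HSFA2 (AT2G26150), a heat shock factor known to activate APX2, was at -0.58 ± 0.22 and did not pass (0.109). Leaving out array 1 or array 2 left 2 genes of this list past the threshold, UPOX and ZAT12, while ZAT10 did not pass (adjusted p = 0.077 and 0.079). The list counted 8 lower with no background correction and with processed signals. It counted 7 lower with median centring and in the authors' table, with 0 higher in each of these settings.

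The genes with ratios nearest to those of FSD1 over the 4 arrays, by Euclidean distance among all genes tested, were AT5G13370 (distance 0.07, log2 ratio -1.08), the receptor-like kinase gene CRK40 (0.13, -1.09), TPS10 (0.15, -1.1), AT4G35750 (0.18, -1.08) and AT5G61520 (0.18, -1.06). With 4 arrays, such nearness is a description of size more than of a pattern. On the chromosomes the 10 genes lay apart except CAT1 and CAT3. Of the 14 tested genes that lie directly before or after one of them in the RefSeq TAIR10.1 table and are no members, 1 was higher, 4 were lower and 9 did not pass. MC2 (AT4G25110), a metacaspase after FSD1, fell by 0.91 ± 0.12 on the log2 scale (limma adjusted p = 0.0098), while AT4G25090 before FSD1 was at 0.19 ± 0.07 (0.0996). LBD1, after APX1, was at -0.96 ± 0.20 (0.029) and was well above background on 2 of 4 arrays in AtERF4-HA, so it entered the test through control alone. AT3G09630, before APX2, was at -0.36 ± 0.09 (0.047) and AT1G77500, after tAPX, at -0.39 ± 0.07 (0.024), opposite to tAPX. AT1G20640, after CAT1, was the one that rose, by 0.67 ± 0.07 (0.0068). Leaving out array 1 or array 2 ended all 5 calls (adjusted p = 0.054 to 0.214), and median centring those of AT3G09630 (0.387) and AT1G77500 (0.234). The AT3G09630 call was also lost in the authors' table (0.0644) and without array 4 (0.0635). The neighbours were named for their position after their values were seen.

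The seedlings held leaf and root, and the make-up of the tissue was read from markers. Of 6 leaf markers 3 rose and 3 did not pass (median 0.32). Of the 3, RCA, Rubisco activase, had ratios of -0.11, -0.02, 0.68 and 0.76, so it was higher in only 1 dye orientation, and without a dye term 2 leaf markers passed. The leaf markers' summed normalised signal was 337000 to 422100 in control and 407400 to 520200 in AtERF4-HA. Of 6 root markers 2 rose and 4 did not pass. NRT2.1, a nitrate transporter among the 4, was well above background on 4 arrays in AtERF4-HA and 0 in control, so it entered only through AtERF4-HA, and the median of the other 5 was 0.43. The root markers had sums of 44350 to 56640 in control and 44920 to 67770 in AtERF4-HA. Leaving out array 1 or array 2, limma called 0 leaf and 0 root markers. At an unadjusted p under 0.05 the leaf markers counted 4 higher in each case, and the root markers 4 higher without array 1 and 2 higher without array 2. No seed marker (of 4) or pollen marker (of 2) was well above background on all 4 arrays in either genotype. The part of tissue make-up in the ratios above was not tested.

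**Figure D4:**
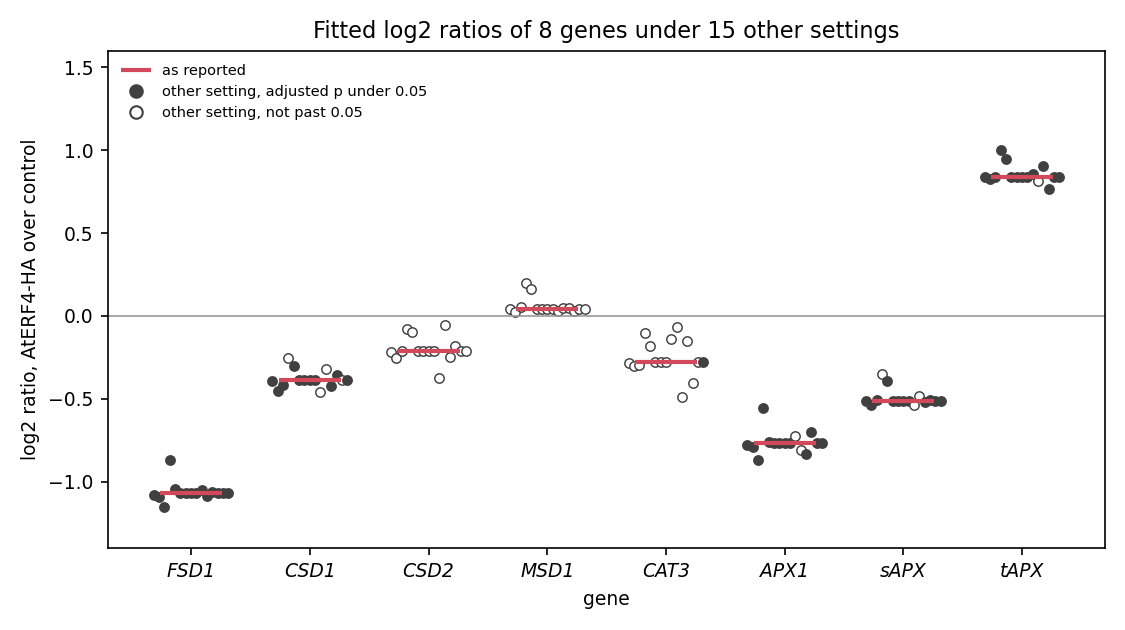
Fitted log2 ratio of AtERF4-HA over control (vertical axis) of the 8 tested genes (horizontal axis) as reported (red bar) and under 15 other settings (dots, filled where the adjusted p was under 0.05). No gene changed sign under these settings, FSD1 stayed past the threshold in all 15, and CSD2 and MSD1 passed in none.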

How the data were processed

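RNA of 4 biological replicates was measured on 4 2-colour Agilent arrays, with 1 µg of total RNA per channel per the labels' protocols. Per the file headers the arrays belong to 1 slide and 1 scan, so neither could serve as a batch. The deposited scanner files hold the authors' spot intensity in both dyes and a log10 ratio, red over green per the file headers. The submitters' processing notes name Agilent Feature Extraction 9.1.3.1. The authors' deposited value table, in natural log units, matched the processed signals of control over AtERF4-HA by the dyes, with a constant shift (intercept -0.078). Against log2 red over green the slope was 0.693 on arrays 1 and 2 (r = 1) and -0.693 on arrays 3 and 4 (r = -1). No source read here says how the value table was made.

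Local background was removed from median signals by normexp (offset 50) in limma 3.58.1 (R 4.3.3), followed by loess with control spots at weight 0. Outlier spots were dropped and repeated spots of a probe averaged. The filter asked for a signal well above background on all 4 arrays in at least 1 genotype, and each gene was read from its brightest kept probe. Channel signals were taken after Aquantile. Log2 ratios were fitted to genotype and dye (lmFit, eBayes; 2 residual and 2.79 prior degrees of freedom), with Benjamini-Hochberg adjustment over 19492 genes. Errors of fitted values are moderated standard errors after the dye term, and the number of arrays limits the precision. Ratios were also simulated for this comparison (19497 genes, 100 of them changed at each size). The fit called 99% of genes changed by 1 on the log2 scale and 70% of those changed by 0.5. It also made 20 false calls among the unchanged genes, beside 99 and 70 true calls at these sizes. False calls were thus a larger share of all calls than the adjusted p threshold aims for. The simulated noise was independent between arrays, and far fewer genes were changed than the 25.6% that passed in the data. These rates may therefore not carry over to the data.

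Members and lists were chosen with earlier results of these data known. Besides the members and their families, each further list gave up to 3 largest changes past the threshold with 1 sign on all arrays. At most 1 gene against the list's median was added, and so were the 5 genes nearest to the member of largest change. GR2, SPL7 and HSFA2 were named outside this rule. Some genes of the lists that passed, among them COPT2, PETE1, WRKY25 and AOX1A, are not described singly. All 88 list genes and 10 members were found in the RefSeq TAIR10.1 table, and symbols are those of the lists. Gene start positions were used only to order the genes for the search of neighbours, and no probe sequences were used. Alternatives were offset 16, no background correction, processed signals, median centring, the authors' table, no filter and a stricter one on dim probes, no dye term, the mean of kept probes and each array left out.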

Additional observations from a re-analysis of the deposited data

Results flagged for a closer look

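Of 47 results tested, 1 had an array far from the other 3: the log2 ratio of FSD3 was 0.44 on array 3 and between -0.29 and -0.19 on the others. Chance alone flags about 1 in 20 groups of 4.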

How the results depend on the processing

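Of the 8 tested members, 8 kept their direction under all 15 alternatives. Calls depended on arrays 1 and 2, without either of which the spread is estimated from arrays 3 and 4 alone. With an array left out the members called ranged from 1 to 5, the genes of the pathway lists from 5 to 35 and all genes from 659 to 7118. Over the same settings CSD1 ranged from -0.46 to -0.32, APX1 from -0.83 to -0.70, sAPX from -0.54 to -0.48 and tAPX from 0.77 to 0.90. Median centring left 3 members called, with CSD1 at -0.26 and sAPX at -0.35 no longer past the threshold. All 8 tested members had the same standard error of 0.149 there, against 0.0725 for CSD1 and 0.0545 for sAPX as reported. CSD1 and sAPX thus lost their calls with a larger error as well as a smaller fall. All genes called came to 9120 with no background correction, 4195 higher and 4925 lower, 8976 with processed signals and 10956 with the authors' table, 7892 higher and 3064 lower. After seeing the data, averaging was tried too. Array 1 averaged with 3 and array 2 with 4 gave 2653 genes, without CSD1 at -0.39 (adjusted p = 0.064), and array 1 averaged with 4 and array 2 with 3 gave 7902, CAT3 at -0.28 among them. Outside the members FSD3 changed sign with processed signals (0.0063), median centring (0.077), the authors' table (0.12) and without array 4, where leaving out an array gave -0.22 to 0.099. APX6 changed sign with no background correction (-0.028) and without array 1 or array 3, with a range of -0.032 to 0.046 on leaving out an array. Neither gene was called in these settings. The median over all genes was 0.01 as reported, 0.11 with median centring and 0.16 in the authors' table. The cause of these changes was not tested. The ratio within each array pairs the genotypes in every fit, so no further replicate block was added.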
